A study of Mus musculus with 15 samples.

Results

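Levels of 9 genes were followed across the arrays of primary mouse lung cells: the surfactant protein genes Sftpa1, Sftpb, Sftpc and Sftpd, and Abca3, Lamp3, Napsa, Slc34a2 and Lpcat1, which serve surfactant processing, lipid handling and the lamellar body. They were chosen by name, as the non-control probes that carry one of these gene names, which gave 12 of 55681 probes and 9 of 22287 named genes. The tests ran over features, that is 46281 genes and unnamed probes. Sftpb, Sftpd and Lpcat1 had 2 probes each and the others 1. The 4 groups were measured on 15 Agilent single-colour arrays. Primary lung fibroblasts, passaged 3 or more times and then starved for 24 h, received vehicle (1x PBS; 4 arrays) or 1 mM β-aminopropionitrile (BAPN; 3 arrays) for 24 h. Primary alveolar type II (ATII) cells, kept at an air-liquid interface for 3 days to reach a monolayer, received the same vehicle (4 arrays) or 1 mM BAPN (4 arrays, one of them a replacement sample that carries no replicate number) for 24 h. BAPN blocks lysyl oxidases, the enzymes that cross-link collagen and elastin. The labels name no strain, age or sex, and do not say whether samples came from separate animals or cultures, and the spread that p-values rest on is that of these arrays and may be technical.

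Surfactant is a film of phospholipids and proteins that lowers surface tension in the alveolus. ATII cells make its phospholipids, import them with the hydrophobic proteins SP-B and SP-C into lamellar bodies, which are lysosome-related storage organelles, and secrete them onto the air surface; the collectins SP-A and SP-D bind microbes and lipids there. In culture, ATII cells are known to lose surfactant gene expression as they spread and take on features of alveolar type I cells.

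Signals are given as a level, the log2 processed intensity minus the 75th percentile of that array, so that 0 is the brightness of the array's 75th percentile. A level is compared between arrays for the same probe and never between probes. The scanner software marks a spot as well above background or not. On the 15 arrays 65.2% to 71.2% of spots were so marked, and the number of arrays limits the precision.

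The probe sequences are printed because the probes of Sftpd, and those of Sftpb, differed from each other in sign or call in at least 1 comparison. They are shown 5′ to 3′ in lower case, with mm9 coordinates from the scanner files. The first Sftpd probe lies at chr14:41987767-41987826 on the minus strand and the second at chr14:41985664-41985723 on the same strand. The first Sftpb probe lies at chr6:72264305-72264364 on the plus strand, and its first 30 bases are printed. The second Sftpb probe takes its 60 bases from a stretch of 2572 genomic bases, chr6:72257183-72259754.
Sftpd, first probe: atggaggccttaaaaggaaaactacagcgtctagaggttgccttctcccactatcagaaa
Sftpd, second probe: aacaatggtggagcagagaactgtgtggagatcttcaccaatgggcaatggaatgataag
Sftpb, first probe, bases 1 to 30: accccttgctaacatttctatgaaatccaa
Sftpb, second probe: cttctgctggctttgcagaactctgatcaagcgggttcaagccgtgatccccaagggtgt

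In each pair, the first probe had the higher mean over the 15 arrays and stood for the gene in the tests. The single Sftpa1 probe is printed because its signal crossed the background limit between ATII arrays (chr14:41947507-41947566, plus strand), and the Napsa probe because it was the member closest to Sftpc across the ATII arrays (chr7:51840710-51841119, plus strand, 60 bases over 410 genomic bases).
Sftpa1: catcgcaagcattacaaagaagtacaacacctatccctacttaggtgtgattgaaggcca
Napsa: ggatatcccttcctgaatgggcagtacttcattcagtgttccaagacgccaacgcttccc

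ATII cells were compared with fibroblasts in vehicle to describe how far the cultures carried the surfactant programme. The surfactant protein genes Sftpc, Sftpb and Sftpd, the protease gene Napsa, the lamellar body gene Lamp3 and the acyltransferase gene Lpcat1 were higher in ATII cells. Among these 6, by the probe that stood for each gene, the difference was largest for Sftpc. Under the scanner software's background subtraction, Sftpc was at least 75.1-fold higher. The difference was smallest for Lpcat1, at 1.38-fold, whose second probe gave 1.66-fold. Abca3 did not pass the test, Sftpa1 was well above background on too few arrays to be tested, and Slc34a2 stayed at background on all 15 arrays. Thus 6 of the 9 members were called higher and 0 lower (limma, Benjamini-Hochberg adjusted p under 0.05), where 14.5% of all 32479 features tested were called higher and 16.8% lower. Sftpb and Sftpc entered the test only through their ATII arrays. The levels of 7 of the 9 members did not overlap between the cell types and were higher in ATII cells, against 15.4% of all features tested. The 7 include Sftpa1, which was not among the features tested, as well as Sftpb and Sftpc. Passaging, starvation and culture format differed with the cell type and cannot be told apart from it, and in bulk samples fewer cells of a type and less RNA per cell cannot be told apart either.

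**Figure D1:**
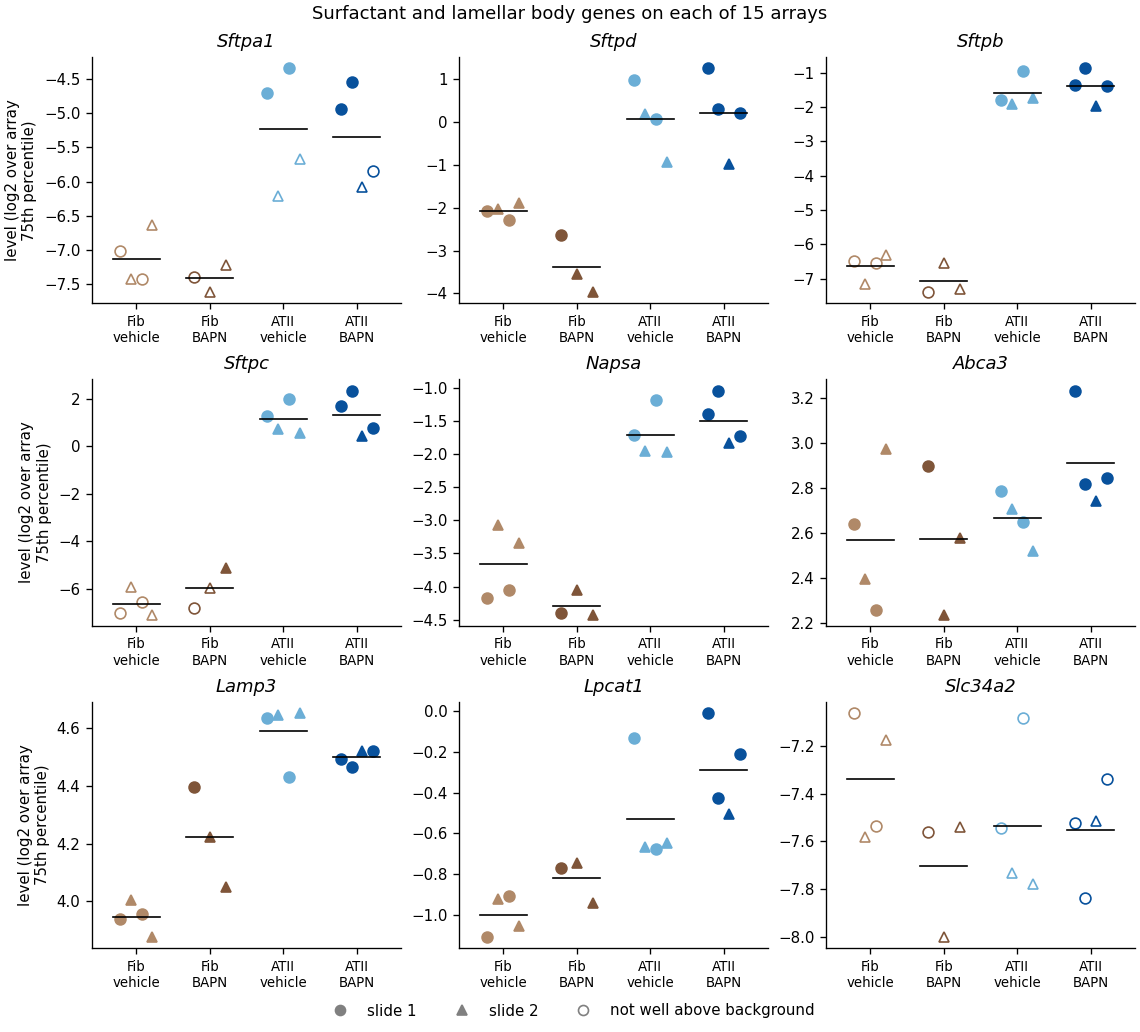
Level of each of the 9 genes on each of the 15 arrays (log2 over the array's 75th percentile), by group. Filled points are well above background, open points are not, circles are slide 1, triangles slide 2, and bars are group means; Slc34a2 is open on all arrays, while Sftpc in ATII cells lies between 0.42 and 2.34, above every fibroblast array.

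Sftpc encodes surfactant protein C, a short hydrophobic protein made almost only by ATII cells. Its level in vehicle-treated ATII cells was 1.26, 0.74, 1.97 and 0.57 on replicates 1 to 4. In vehicle-treated fibroblasts it was −7.00, −5.91, −6.54 and −7.08, at background on all 4. The log2 difference was 7.77 ± 0.47 (SE; means 1.14 ± 0.63 and −6.63 ± 0.54, SD, n = 4 each; limma, adjusted p = 4.34e-08). With BAPN in both cell types the difference was 7.27 ± 0.51 (adjusted p = 2.08e-07), and the probe was well above background on 1 of 3 fibroblast arrays, replicate 4, at −5.12. Every ATII array stood above every fibroblast array.

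Sftpb encodes surfactant protein B, which is required for lamellar body formation. The first probe read −1.79, −1.91, −0.94 and −1.73 on the vehicle ATII arrays. On the vehicle fibroblast arrays it read −6.48, −7.16, −6.54 and −6.31, never well above background. The difference was 5.03 ± 0.29 (SE, adjusted p = 2.63e-08), at least 11.3-fold, and with BAPN in both cell types it was 5.67 ± 0.31 (adjusted p = 2.28e-08), at least 15.8-fold. The second probe was dim throughout. It read −4.88, −5.94, −4.14 and −4.92 on the vehicle ATII arrays, the second of them not well above background, and −5.88, −7.10, −5.34 and −6.56 on the vehicle fibroblast arrays, none of them well above background. Its groups overlapped in vehicle, with a difference of 1.25 ± 0.43 (adjusted p = 0.0381, each probe tested on its own), at least 1.09-fold. The second probe entered this test only through its ATII arrays. With BAPN its difference was 0.28 ± 0.46 (adjusted p = 0.71). Both vehicle folds are lower bounds, so their sizes are not compared; with BAPN the first probe passed and the second did not.

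Sftpd encodes the collectin SP-D. The first probe read 0.99, 0.18, 0.07 and −0.93 on the vehicle ATII arrays and −2.09, −2.04, −2.28 and −1.88 on the vehicle fibroblast arrays, where it was well above background on all 4. The groups did not overlap, with a difference of 2.15 ± 0.46 (SE, adjusted p = 0.00248), and of 3.59 ± 0.49 with BAPN (adjusted p = 9.83e-05). The second probe read 2.66, 1.82, 1.64 and 0.46 in the ATII cells and −7.10, −6.16, −5.02 and −5.66 in the fibroblasts, where only replicate 3 was well above background. Its difference was 7.63 ± 0.80 (adjusted p = 6.79e-06, each probe tested on its own), a size that rests on 3 fibroblast arrays at background. This probe entered the test only through its ATII arrays. Both probes placed Sftpd higher in ATII cells and gave the 4 vehicle ATII arrays the same order, but they disagreed on whether fibroblasts held a clear signal.

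Sftpa1 encodes surfactant protein A. It was well above background on 2 of 4 vehicle ATII arrays (replicates 1 and 3, at −4.71 and −4.34) and not on replicates 2 and 4 (−6.21 and −5.66). With BAPN it was well above background on replicates 1 and 3 (−4.93 and −4.55) and not on replicate 4 (−6.08) or the replacement array (−5.85). It was well above background on 0 of 7 fibroblast arrays, which lay between −7.62 and −6.63. No fold is given for a probe at this brightness, although each ATII array was above each fibroblast array.

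Napsa encodes napsin A, an aspartic protease that helps process the SP-B precursor. Its level was −1.71, −1.96, −1.18 and −1.97 in vehicle ATII cells and −4.18, −3.07, −4.05 and −3.35 in vehicle fibroblasts, well above background on all arrays. It was 3.88-fold higher in ATII cells (log2 difference 1.96 ± 0.27, SE, adjusted p = 7.57e-05) and 6.93-fold higher with BAPN in both (2.79 ± 0.29, adjusted p = 7.55e-06). Within slides 1 and 2, each holding 2 arrays of each vehicle group, the vehicle difference was 2.67 and 1.25. The size of the Napsa difference thus varied between slides while its direction held.

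Lamp3 encodes DC-LAMP, a membrane protein of the lamellar body that mature dendritic cells also make. It read 4.64, 4.65, 4.43 and 4.65 in vehicle ATII cells and 3.94, 4.00, 3.96 and 3.88 in vehicle fibroblasts. The groups did not overlap but lay close, with a 1.57-fold difference (0.65 ± 0.095, SE, adjusted p = 1.43e-04). With BAPN in both cell types the difference was 0.28 ± 0.10 and missed the threshold (adjusted p = 0.0569). It passed there after quantile normalization (0.35, adjusted p = 0.0130) and in the authors' deposited table (0.35, adjusted p = 0.0141). Of 14 macrophage and dendritic cell markers tested in vehicle (of 15), 10 were lower in ATII cells, 2 were higher (Cd74 and H2-Ab1), and Ccr7 and Fscn1 did not pass; their part in the Lamp3 level was not tested.

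Abca3 encodes the transporter that loads phospholipid into lamellar bodies. It read 2.79, 2.71, 2.65 and 2.52 in vehicle ATII cells and 2.64, 2.40, 2.26 and 2.97 in vehicle fibroblasts, and the fibroblast arrays lay on both sides of the ATII arrays. The difference was 0.10 (95% interval −0.28 to 0.48, adjusted p = 0.737), and with BAPN in both it was 0.34 (−0.07 to 0.75, adjusted p = 0.215). Its interval in vehicle leaves room for a change of up to 0.48 on the log2 scale.

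Lpcat1 encodes an acyltransferase that makes the dipalmitoyl phosphatidylcholine of surfactant. Its first probe read −0.13, −0.67, −0.67 and −0.65 in vehicle ATII cells and −1.11, −0.92, −0.91 and −1.06 in vehicle fibroblasts, with no overlap. The difference was 0.47 ± 0.14 (SE, adjusted p = 0.0236) and that of the second probe 0.73 ± 0.16 (adjusted p = 0.00349, each probe tested on its own). The call of the first probe was lost without ATII vehicle replicate 1 (0.34, adjusted p = 0.0691) or fibroblast vehicle replicate 1 (0.43, adjusted p = 0.0619). With BAPN in both cell types the difference was 0.53 ± 0.16 (adjusted p = 0.0201), and it was lost with the replicate number as a block (0.53, adjusted p = 0.0606).

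Slc34a2 encodes the sodium-phosphate cotransporter that retrieves phosphate from the alveolar surface, and it is a widely used ATII marker. Its probe lay between −8.00 and −7.06 on all 15 arrays and was well above background on 0 of 8 ATII arrays. Only a bound is therefore known, and the groups cannot be ordered.

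With BAPN in both cell types 5 of 9 members were called higher in ATII cells and 0 lower, against 13.4% and 15.9% of 32271 features tested; the levels of 7 of 9 members were higher without overlap, against 15.4% of features. The 7 again include Sftpa1, which was not among the features tested. Sftpb and Sftpc entered the test in BAPN, too, only through their ATII arrays. Both comparisons come from a fit that shares 1 estimate of the spread over all 15 arrays; with only the groups compared, 4 members passed in BAPN, and Lpcat1 did not (0.53, adjusted p = 0.0516). Under normexp background correction the vehicle differences of Sftpc, Sftpb and Napsa were smaller, at 4.34, 1.85 and 1.10, and all stayed past the threshold. For Sftpc and Sftpb these values lie below the at-least folds given above, which hold only for the scanner software's background subtraction.

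**Figure D2:**
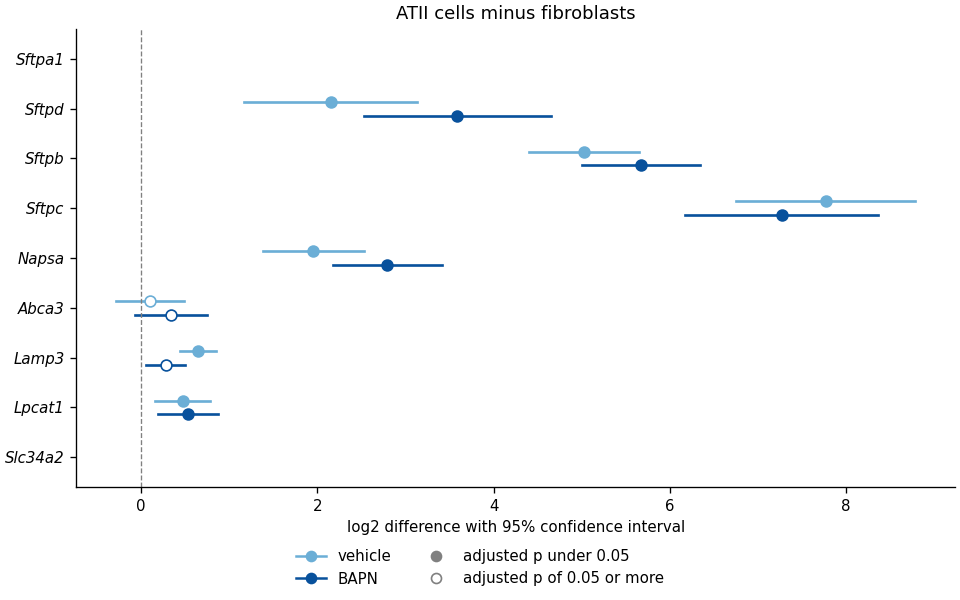
Log2 difference of ATII cells minus fibroblasts with its 95% confidence interval, in vehicle and in BAPN. Filled points have an adjusted p under 0.05; Sftpc and Sftpb lie farthest to the right (7.77 and 5.03 in vehicle), Abca3 crosses 0, and the untested Sftpa1 and Slc34a2 have no point.

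BAPN was then compared with vehicle within each cell type, the comparison for which the study was made. In ATII cells none of the 8 members tested passed, with adjusted p between 0.479 and 0.928 (limma), and 0 of 8 had an unadjusted p under 0.05. Of all 32051 features, 0% passed and 10.4% had an unadjusted p under 0.05. The levels of every member overlapped between vehicle and BAPN, where 9.07% of all features did not overlap. The intervals show what the arrays could and could not resolve. For Lamp3 the difference was −0.09 (95% interval −0.30 to 0.11), for Abca3 0.24 (−0.14 to 0.63) and for Lpcat1 0.24 (−0.07 to 0.55). For Sftpb it was 0.19 (−0.43 to 0.81), for Sftpc 0.17 (−0.85 to 1.18), for Sftpd 0.13 (−0.86 to 1.11), for Napsa 0.21 (−0.37 to 0.78) and for Sftpa1 −0.12 (−1.01 to 0.76). The intervals were widest for Sftpc and Sftpd.

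In fibroblasts, 5 members were measured well enough to be tested and 0 passed, whereas 13.4% of 32264 features did. Of these, 3 had an unadjusted p under 0.05 (27.1% of all features did). The first Sftpd probe read −2.64, −3.54 and −3.97 on BAPN replicates 1, 2 and 4, below all vehicle values given above (−1.31 ± 0.49, SE, adjusted p = 0.0987). The second Sftpd probe had a difference of the other sign, with −7.21, −5.23 and −3.05 (0.82 ± 0.86, adjusted p = 0.588, each probe tested on its own). The call on Sftpd depended on the fit: it passed with only both fibroblast groups in the model (adjusted p = 0.0474) and within slide 2 (−1.80, adjusted p = 0.0301), and within slide 1, where replicate 1 was the only BAPN array, the difference was −0.46, given without a test. Since the probes disagree in direction, no direction is given for Sftpd in fibroblasts.

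Lamp3 in fibroblasts read 4.40, 4.22 and 4.05 with BAPN, above all vehicle arrays (0.28 ± 0.10, adjusted p = 0.0903), and Napsa read −4.40, −4.06 and −4.42, overlapping with vehicle (−0.63 ± 0.29, adjusted p = 0.176). Lamp3 and Sftpd were the 2 members whose fibroblast groups did not overlap, where 24% of all features did not. Lpcat1 (0.18, adjusted p = 0.492) and Abca3 (0.00, adjusted p = 0.993) did not pass. Of the 11 pan-epithelial markers, 6 were tested in the same arrays, with 1 lower and 0 higher, against 13.4% of all features called. The lower one was Cldn4 (−2.14 ± 0.40, limma, adjusted p = 0.00943). The summed signal of the 11 pan-epithelial markers ranged over 1.59 to 16.6 in vehicle and 1.24 to 18.4 in BAPN, in multiples of the array's 75th percentile. The part of these markers in the members' values was not tested.

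The contrast of both BAPN effects, ATII cells less fibroblasts, passed for 0 of 8 members and for 0% of 34297 features; 1 member, Lamp3, had an unadjusted p under 0.05 (−0.37 ± 0.14, SE, adjusted p = 0.281), as did 13.8% of features. For the first Sftpd probe the difference was 1.44 (95% interval −0.02 to 2.90, adjusted p = 0.368), and for the second it had the other sign (−0.73, adjusted p = 0.834, each probe tested on its own). For Napsa it was 0.84 (−0.01 to 1.69, adjusted p = 0.369).

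**Figure D3:**
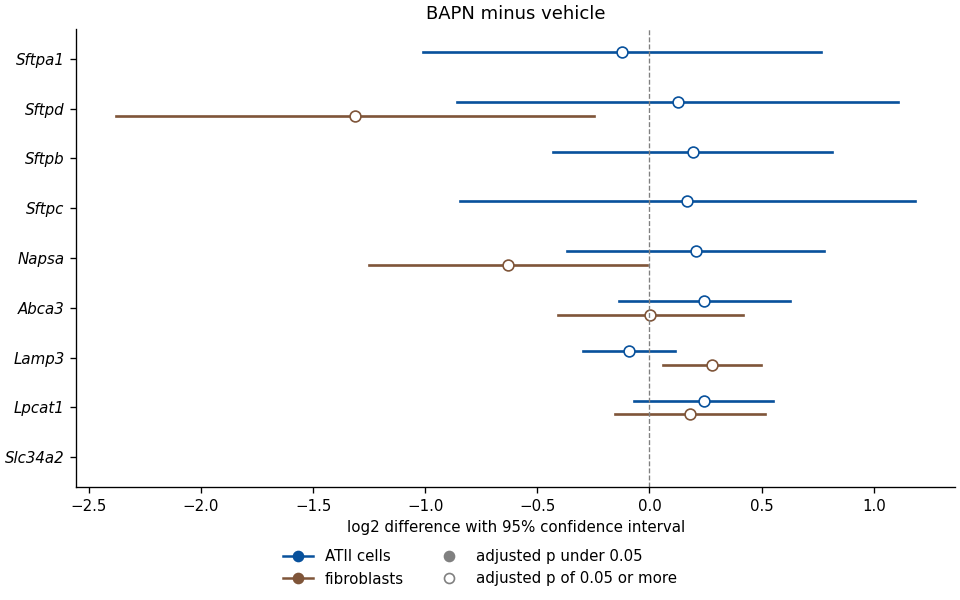
Log2 difference of BAPN minus vehicle with its 95% confidence interval, in ATII cells and in fibroblasts. All points are open, so none passed at an adjusted p of 0.05; the interval of Sftpc in ATII cells runs from −0.85 to 1.18 and that of Lamp3 from −0.30 to 0.11.

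The members differed in how far they spread between ATII arrays of one group. In vehicle the SD of Sftpd (0.79) was larger than that of 97.7% of the 28063 features well above background on all 4 arrays, that of Sftpc (0.63) larger than 94.8%, and those of Sftpb (0.44) and Napsa (0.37) larger than 87.8% and 82.8%. Abca3 (0.11) and Lamp3 (0.11) were at 27.2% and 24.8%. The median SD was 0.17. With BAPN, Sftpd and Sftpc exceeded 98.9% and 98.6% of features, Abca3 (0.22) exceeded 53.8%, and Lamp3, with an SD of 0.026, exceeded 0.536%. Differences in spread between the members were not tested.

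On the ATII arrays, the levels of Sftpd and of Sftpc kept their order over numbers 1, 3 and 4 in both treatments. Sftpd read 0.99 and 1.26 in vehicle and BAPN of number 1, 0.07 and 0.31 in number 3, and −0.93 and −0.97 in number 4. Sftpc read 1.26 and 1.68, 1.97 and 2.34, and 0.57 and 0.42 in the same order. The within-number differences of BAPN less vehicle were 0.43, 0.37 and −0.15 for Sftpc in numbers 1, 3 and 4, and they were also of mixed sign for Sftpb, Sftpd and Lamp3. They had 1 sign in all 3 numbers for Abca3 (0.45, 0.17 and 0.22), the first Lpcat1 probe (0.12, 0.25 and 0.14), Napsa (0.32, 0.14 and 0.14) and Sftpa1 (−0.23, −0.21 and −0.42). For the second Lpcat1 probe they were of mixed sign (0.06, 0.49 and −0.05). Labels give the numbers but do not say that a number marks a shared isolation, and over all features the deviations of same-numbered ATII arrays correlated at 0.23, −0.15 and −0.15, so the numbers were not taken as pairs in this comparison.

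The number also followed the slide: arrays numbered 1 and 3 and the replacement array were on slide 1, and arrays numbered 2 and 4 on slide 2. Sftpc ranged from 0.77 to 2.34 on the 5 ATII arrays of slide 1 and from 0.42 to 0.74 on the 3 of slide 2, a difference in means of 1.02 with no overlap. Napsa ranged from −1.73 to −1.04 and from −1.97 to −1.83, also without overlap. These 2 of 8 members tested in ATII cells were higher on slide 1 without overlap, where 2.6% of features were. Sftpa1 was well above background on 4 of 5 arrays of slide 1 and on 0 of 3 of slide 2. The first probes of Sftpb, Sftpd and Lpcat1 and those of Abca3 and Lamp3 overlapped between slides. Slide, number and culture cannot be told apart here. The pan-epithelial markers summed to 727.8 to 899.9 on slide 1 and to 619.7 to 714.2 on slide 2, and the fibroblast markers to 1253 to 1639 and 1458 to 1779. The club and other airway markers summed to 8.11 to 22.4 on slide 1 and to 5.07 to 7.78 on slide 2, without overlap; the part of these lists in the slide difference was not tested.

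**Figure D4:**
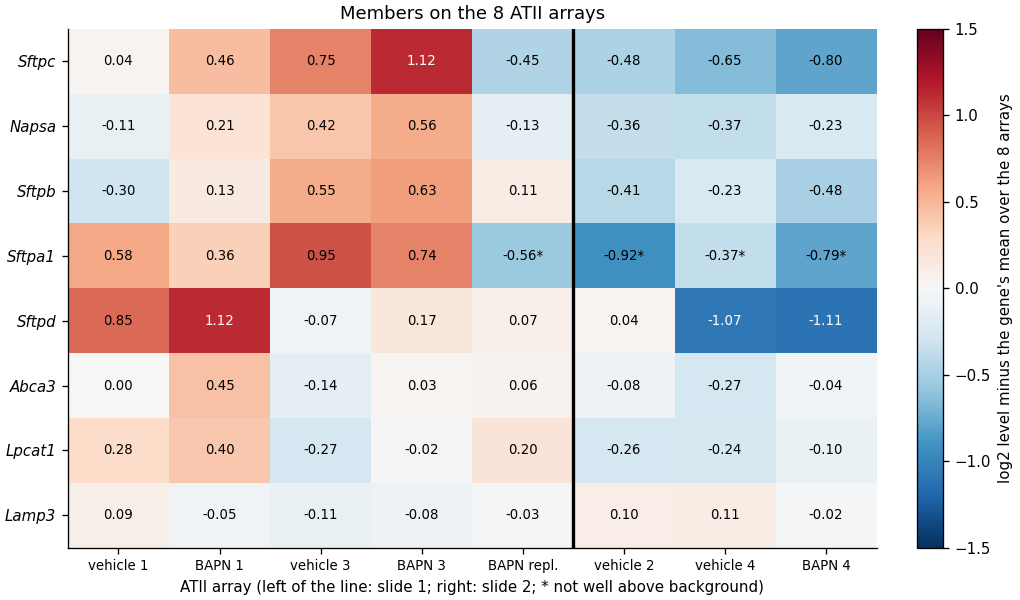
Level of 8 members on each of the 8 ATII arrays minus the gene's mean over them (log2; colour and printed value), with slide 1 left and slide 2 right of the line and an asterisk where the probe was not well above background. Sftpc, Napsa, Sftpb and Sftpa1 were highest in number 3 (0.75 and 1.12 for Sftpc), whereas Sftpd, Abca3 and Lpcat1 were highest in BAPN number 1 (1.12 for Sftpd), and the Lamp3 row stays between −0.11 and 0.11.

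Levels were correlated over the 8 ATII arrays for all 28 pairs of the 8 members well above background on 3 or more of these arrays. Sftpa1 was so on 4 of 5 arrays of slide 1 and on 0 of 3 of slide 2. Its correlations therefore rest in part on values at background. In all, 5 pairs passed (exact permutation test over pairings, two-sided, Benjamini-Hochberg over 28 pairs): Sftpc with Napsa (r = 0.958, rho = 0.929, p = 0.000446, adjusted p = 0.0125), Sftpb with Napsa (r = 0.920, rho = 0.786, adjusted p = 0.0218), Abca3 with Lpcat1 (r = 0.824, rho = 0.857, adjusted p = 0.0218), Sftpa1 with Sftpc (r = 0.895, rho = 0.833, adjusted p = 0.0417) and Sftpb with Sftpc (r = 0.874, rho = 0.881, adjusted p = 0.0417). By Spearman's rho 0 pairs passed, with 12 at an unadjusted p under 0.05 against 11 by Pearson's r. The share of pairs of other features that would pass is not given here. The 5 of 28 can therefore not be read as particular to the members. Sftpd was closer to Abca3 (r = 0.737, adjusted p = 0.0989) and Lpcat1 (r = 0.734, adjusted p = 0.105) than to Sftpc (r = 0.563) or Sftpb (r = 0.312), an order whose differences were not tested. Lamp3 ran against Napsa (r = −0.836, adjusted p = 0.0687) and Sftpb (r = −0.787, adjusted p = 0.0989) over its narrow range.

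These relations depend on few arrays. With the 2 arrays farthest from the median of the first gene left out, r was 0.863 for Sftpc with Napsa, 0.700 for Sftpb with Napsa, 0.806 for Abca3 with Lpcat1, 0.897 for Sftpa1 with Sftpc and 0.589 for Sftpb with Sftpc, and 0 pairs passed. As deviations from slide means the values were 0.906, 0.826, 0.749, 0.752 and 0.725, again with 0 pairs past the threshold, and no correlation was computed within slide 1 (5 ATII arrays) or slide 2 (3 arrays). As deviations from the group means 9 pairs passed.

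The genes whose pattern over the 8 ATII arrays was most like that of Sftpc, of 17714 named genes compared, were Cryaa (Pearson's r = 0.978), which encodes a lens crystallin and chaperone, the potassium channel subunit gene Kcne2 (0.965), 9530036O11Rik (0.962), Napsa (0.958) and the homeobox gene Msx1 (0.957). For Sftpb they were the acyl-CoA synthetase gene Slc27a2 (0.958), the haptoglobin gene Hp (0.950), Lypd5 (0.941), Mlc1 (0.934) and Napsa (0.920). Napsa was the one gene on both lists. These are descriptions over 8 arrays that share slides and cultures.

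The 4 lists of other surfactant pathway genes were set beside the members in vehicle. Their counts stand beside 14.5% of all features called higher and 16.8% called lower, and beside a median of −0.13 over all features. Of 14 transcription regulators, 8 were higher in ATII cells and 2 lower, with a median of 0.55. Foxa1 (9.78 ± 0.28, SE, at least 199.9-fold), Foxa2 (5.96 ± 0.55) and Nkx2-1 (5.72 ± 0.14, at least 12.3-fold), the pioneer factors and the homeobox factor that drive surfactant protein genes, rose most. The glucocorticoid receptor gene Nr3c1 (−1.22) and Nfib (−0.45) were lower. Nkx2-1 read −1.48 ± 0.11 (SD, n = 4) in vehicle ATII cells and −1.43 ± 0.17 with BAPN, an SD well under that of Sftpc.

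Of 22 lipid synthesis genes tested (of 23), 11 were higher and 2 lower, with a median of 0.39. The stearoyl-CoA desaturase genes Scd2 (1.94 ± 0.12) and Scd1 (1.67 ± 0.18) and the acyl-CoA synthetase gene Acsl4 (1.42 ± 0.11) rose most, while the triglyceride enzyme gene Dgat2 (−1.28) and the fatty acid binding protein gene Fabp5 (−0.43) were lower. Of the 28 genes of protein processing, lamellar body formation and traffic, 2 were higher and 11 lower, with a median of −0.23. Rab38, which guides cargo to lysosome-related organelles, rose (3.77 ± 0.18), as did the SNARE gene Vamp8 (0.93), and Rab27a (−2.26), Snap23 (−1.05) and Rab32 (−0.90) fell. Of 14 secretion, uptake and turnover genes tested (of 16), 5 were higher and 6 lower, with a median of −0.25. Csf2, which encodes GM-CSF (8.93 ± 0.30, at least 129-fold), the integrin gene Itgb6 (7.66 ± 0.59) and the surfactant-sensing receptor gene Adgrf5 (3.00 ± 0.22) rose, and Cd36 (−2.08), the GM-CSF receptor gene Csf2rb (−1.53) and the purinergic receptor gene P2ry2 (−1.10) fell. Quantile normalization moved the median of all features by 0.11, so small differences depend on the scaling. With BAPN in ATII cells 0 genes of any of the 4 lists passed. With BAPN in fibroblasts 1 of 22 lipid genes tested was higher and 0 lower, and of 28 processing genes 3 were higher and 1 lower. Among transcription regulators 0 of 12 passed and among secretion genes 0 of 13, where 13.4% of all features did. The lipid gene Chka rose (0.47, limma, adjusted p = 0.0402), as did Lamp2 (0.58), Hps3 (0.54) and Cd63 (0.48). The protease gene Pga5 fell (−1.95, limma, adjusted p = 0.0208). These calls did not hold with the replicate number as a block.

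**Figure D5:**
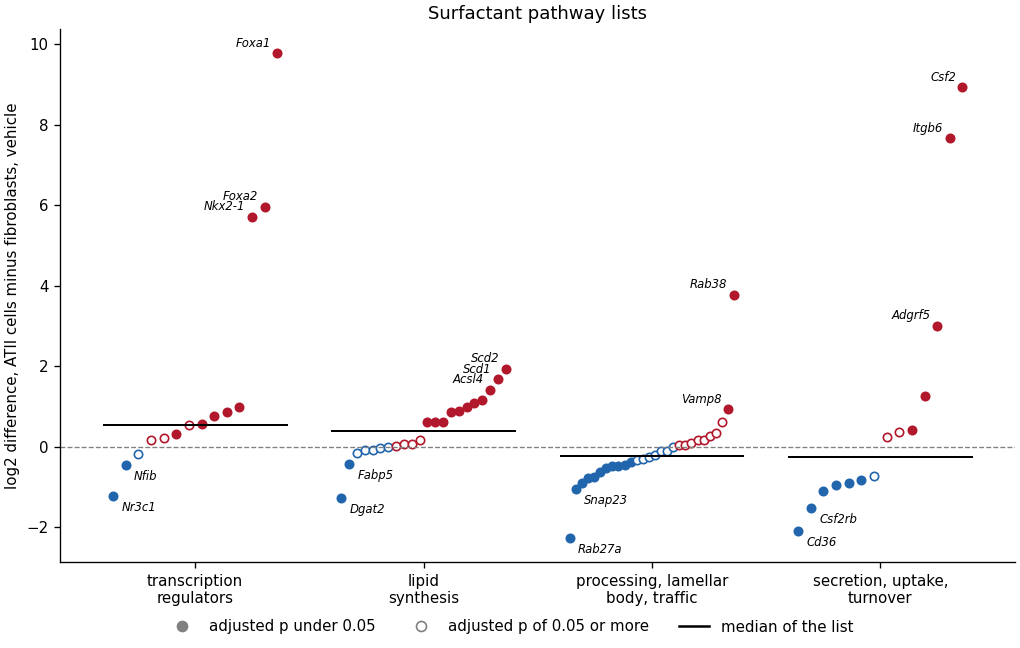
Log2 difference of ATII cells minus fibroblasts in vehicle for each tested gene of the 4 pathway lists, sorted within a list. Filled points have an adjusted p under 0.05, red is higher and blue lower in ATII cells, and bars mark the list medians (0.55, 0.39, −0.23 and −0.25); Foxa1 and Csf2 stand highest at 9.78 and 8.93.

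The promoters of Sftpa1 and Sftpb, from RefSeq (GRCm38.p6), are printed because they held the letters CTCAAG, a core bound by Nkx2-1, which was measured on the same arrays. The 250 bases before each start were searched on both strands for CTCAAG and for the forkhead core TGTTTAC, and matches are in capitals. Promoters were given for Sftpa1 (chr14:41131538-41131787, plus strand), Sftpb (chr6:72304360-72304609, plus strand), Abca3, Lamp3, Slc34a2 and Lpcat1.
Sftpa1: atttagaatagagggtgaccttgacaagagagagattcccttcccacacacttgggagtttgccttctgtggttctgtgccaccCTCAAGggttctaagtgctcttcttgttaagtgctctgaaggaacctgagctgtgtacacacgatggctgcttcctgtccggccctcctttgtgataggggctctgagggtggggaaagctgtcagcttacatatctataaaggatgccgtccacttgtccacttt
Sftpb: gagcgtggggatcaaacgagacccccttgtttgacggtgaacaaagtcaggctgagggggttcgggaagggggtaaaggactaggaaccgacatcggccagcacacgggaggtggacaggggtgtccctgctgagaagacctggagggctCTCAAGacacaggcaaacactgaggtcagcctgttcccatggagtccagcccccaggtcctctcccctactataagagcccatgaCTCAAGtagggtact

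Sftpb held 2 matches to CTCAAG, which begin 100 and 15 bases before the start, and Sftpa1 held 1, beginning 166 bases before it. Among all 32851 promoter windows of this length, 13.3% held 1 or more and 0.998% held 2 or more. Abca3, Lamp3, Slc34a2 and Lpcat1 held 0. TGTTTAC was in the Lamp3 window (92 bases before the start) and in 3.17% of all windows. A match is a string of letters and not a measured binding site.

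The cultures were checked against marker genes. All 11 pan-epithelial markers were higher in ATII cells, with a summed signal of 619.7 to 778.8 times the array's 75th percentile in vehicle against 1.59 to 16.6 in fibroblasts, and Cdh1 was well above background on 0 of 7 fibroblast arrays. Of the 18 ATII markers, members included, 15 were tested in vehicle. Of these, 10 were higher in ATII cells and 3 lower, against 14.5% and 16.8% of all features. Among the ATII markers that are not members, the higher ones included Nkx2-1, Cd74 (4.53) and Muc1 (2.68). Lyz2 (−4.20), Lyz1 (−3.31) and Fabp5 were lower, and Cxcl15 stayed at background throughout. Those ATII markers that are not members, 9 in all, summed to 43.4 to 48.1 in vehicle ATII cells and to 61.3 to 90.2 in vehicle fibroblasts. Such a sum rests most on the brightest markers. The mean level of the same 9 markers went the other way, at −0.44 to 0.07 in vehicle ATII cells and −1.18 to −0.69 in vehicle fibroblasts. Of 15 alveolar type I markers tested, 8 were higher in ATII cells, Aqp5 (4.78) and Ager (4.54) among them, and 4 were lower. Of 7 club and other airway markers tested, 4 were higher and 0 lower, with a median of 2.06. The fibroblast list of 14 markers had 7 lower and 0 higher, and Col1a1 read 7.84 ± 0.26 (SD, n = 4) in vehicle ATII cells and 7.77 ± 0.18 in fibroblasts. The part of other cells in the members' levels was not tested.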

How the data were processed

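RNA of 15 samples was measured on single-colour Agilent arrays. The deposited scanner files hold spot intensity from Agilent Feature Extraction 10.7.3.1, per the file headers and the submitters' processing notes, background-subtracted and not normalized between arrays. The deposited series table holds log2 values that the authors had made alike in distribution between arrays; columns agreed to within 0.0032 after sorting, and each correlated with its own array at r of at least 0.999. Outlier spots were left out, spots of a probe averaged, and 469 probes without a value on some array dropped. Probes were named through RefSeq (GRCm38.p6): 27522 by accession, 3423 by symbol and 493 by older symbol, with 24243 unnamed. For a gene, the probe of highest mean over all arrays stood. Features marked above background on 3 or more arrays of a comparison's groups were tested with limma 3.58.1 in R 4.3.3 (all 15 arrays, a mean per group, Benjamini-Hochberg over all features, threshold 0.05). SE is that of the fit. "At least N-fold" sets the brighter mean against a floor for each dim array, which is the dimmest signal still marked above background, or the probe's signal where that is higher. The floor is taken over all probes of the array, and the bound holds only for the scanner software's background subtraction. Correlations used Python 3.11.15 with NumPy 2.4.6. The fit and the correlation test were tested on simulated data. Same-numbered arrays of the vehicle groups deviated together (r of 0.230, 0.239, 0.309 and 0.329), so numbers count as pairs there, though they also shared slides. Between the cell types in BAPN r was 0.158 for number 1 and 0.232 for number 4. The main fit left this pairing out, and the counts with the number as a block are given below. The members and gene lists were chosen with earlier results of these data known, and all members, the 3 largest changes past the threshold in each direction per list, the 5 genes most like Sftpc and Sftpb and moving markers are named. No array of fibroblast BAPN number 3 was analysed here.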

Additional observations from a re-analysis of the deposited data

Results flagged for a closer look

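In groups of 4 arrays, 24 combinations of probe and group were checked for an array far from the others, and chance sets apart about 1 in 20. In vehicle-treated ATII cells, Lamp3 on replicate 3 (4.43) lay below the other 3 arrays (4.64 to 4.65), a gap of 0.918 of the group's range. In the same group, Lpcat1 on replicate 1 (−0.13) lay above the others (−0.67 to −0.65), a gap of 0.950 of the range. Without that array the Lpcat1 difference between ATII cells and fibroblasts in vehicle was 0.34 and missed the threshold (limma, adjusted p = 0.0691), while that of Lamp3 without replicate 3 stayed past it.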

How the results depend on the processing

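Over all alternatives, 903 of 964 values of single members kept their direction and their side of the threshold, 0 called values reversed, 11 lost and 8 gained the call, and 42 that passed under neither setting changed sign. For ATII cells against fibroblasts in vehicle, 6 members passed, 5 to 6 without 1 array, and 3 on either slide alone, where 5 members were tested. Sftpb and Sftpc were not tested there, since each slide holds 2 vehicle ATII arrays and the filter asks for 3. Their differences within slides 1 and 2 were 5.1 and 4.9 for Sftpb and 8.4 and 7.2 for Sftpc. Of the 5 members tested, Lpcat1 lost its call on both slides. In BAPN 5 passed, 4 to 6 without 1 array, and 2 on slide 2 alone, where ATII BAPN replicate 4 is the only ATII array and is assumed to vary like the other groups. For BAPN in ATII cells and for the difference of effects, 0 passed under all alternatives. For BAPN in fibroblasts 0 passed, but 1 (Sftpd) with only the groups compared in the fit, 2 (Sftpd and Napsa) on slide 2 alone, and 0 to 1 without 1 array (Sftpd without ATII BAPN replicate 4, adjusted p = 0.0488). Without ATII BAPN replicate 1, fibroblast BAPN replicate 4 or the replacement array, Lpcat1 missed the threshold in BAPN (adjusted p = 0.0578, 0.0786 and 0.0505), and without fibroblast BAPN replicate 1, Lamp3 passed (adjusted p = 0.0184). Of 28 correlated pairs 5 passed, 9 as deviations from group means, 0 without the 2 farthest arrays and 0 as deviations from slide means, the last chosen after seeing the data. The cause of these shifts was not tested beyond the smaller numbers of arrays.

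With the replicate number as a block, 6 members passed in vehicle, 4 in BAPN (Lpcat1 was lost), and 0 in the other 3 comparisons; over all features the block took the calls for BAPN in fibroblasts from 4310 to 0. By the check of deviations, same-numbered arrays were not paired in either comparison of BAPN against vehicle. Signal over background limits Sftpa1 and Slc34a2, and the number of arrays limits the BAPN comparisons.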

Other observations

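On fibroblast BAPN replicate 4, probes of 3 surfactant protein genes were well above background: Sftpc at −5.12, the second Sftpb probe at −4.14 and the second Sftpd probe at −3.05. Of these, only the Sftpc probe was so marked on no other fibroblast array. The second probes of Sftpb (−5.05) and Sftpd (−5.23) were also marked on BAPN replicate 2, and that of Sftpd on vehicle replicate 3 (−5.02). On BAPN replicate 4 the first Sftpb probe (−7.31), Sftpa1 (−7.22) and Slc34a2 (−7.54) were not well above background. The first Sftpd probe was at its lowest fibroblast value there (−3.97). Of 11 pan-epithelial markers 6 were well above background on this array, as on the other BAPN fibroblast arrays, and their summed signal was 6.02 times the array's 75th percentile, between those of replicate 2 (1.24) and replicate 1 (18.4). The club and other airway markers summed to 7.36 there, above the other 6 fibroblast arrays (4.16 to 5.93). Their mean level there, −4.05, lay within the range of the vehicle fibroblast arrays (−4.33 to −3.84). Of 18 ATII markers, members included, 13 were well above background, against 12 on each of the others, and the added one was Sftpc itself. With the members left out, 7 of 9 were so marked on this array and on each other fibroblast array. This array was singled out after its values were seen, and its origin was not tested.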
